A study of Mus musculus with 4 samples.

Results

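Trophectoderm regulators are 9 genes, Gata2, Gata3, Tfap2a, Tfap2c, Elf3, Elf5, Tead4, Hand1 and Cdh3, chosen by symbol and each found as 1 row among the 46603 gene IDs of the deposited table. All 9 had reads, as did 30237 genes in all. None of the 9 passed an adjusted p of 0.05 in the authors' deposited table, where 3.46% of the genes with reads did. Elf3 had the largest difference, with a mean 2.25-fold higher in group B, and Gata3 the largest in the other direction. The 9 genes differed far more from one another in level than between the groups.

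The trophectoderm is the outer epithelium of the blastocyst and gives rise to the trophoblast of the placenta. TEAD4, with its coactivator YAP, and the GATA and AP-2 factors switch on trophectoderm genes in the early embryo, while the pluripotency factor OCT4 holds that programme down in embryonic stem cells. ELF5 and HAND1 act later, in trophoblast stem cells and in giant cells of the placenta, and P-cadherin, the product of Cdh3, is an adhesion molecule of placental and other epithelia.

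Polyadenylated RNA was sequenced from mouse embryonic stem cells in 2 samples labelled Gsk3a-/-;Gsk3b-/-, a genotype label that names both genes of glycogen synthase kinase 3, and in 2 samples labelled wild type. All were grown with serum and leukaemia inhibitory factor on gelatin and irradiated mouse embryonic fibroblasts, a feeder layer that can add its own RNA. The sample labels give the age as Embryonic Day 16 and the design text has E15, which may be an age or a line. Neither says how many clones were used or what each allele removes. The table compares a group B with a group A, and no label or header says which genotype is which, so values are stated for B over A. Nothing states that the samples of a group came from separate cultures, so p-values may measure technical spread.

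The counts of 4 libraries, called B1, B2, A1 and A2, were recovered from the group means, and their totals were 112655210 to 146326307 reads. A normalized count is a read count divided by its library's size factor. Of the targeted genes, Gsk3a had 1697 and 1347 normalized counts in B1 and B2, against 6353 and 7104 in A1 and A2 (log2 fold change -2.14 with an adjusted p of 4.90e-24 in the authors' deposited table). For Gsk3b the values were 5051 and 5002 in B1 and B2, against 5438 and 6285 in A1 and A2 (-0.22, adjusted p 0.984, authors' deposited table). Gsk3b did not pass and Gsk3a kept at least 1347 normalized counts in every library, so in neither group were both transcripts absent. Gsk3a was lower in both B libraries than in both A libraries. What each allele removes is not stated, so no genotype was assigned to a group from these values. Pluripotency factors were abundant in all libraries, with 0 of 12 at 0 reads and summed normalized counts of 633387 to 647337 in group B and 702869 to 770397 in group A. Feeder markers differed within each group, with sums of 41984 in B1 and 216741 in B2, against 151409 in A1 and 73717 in A2. All 2601 gene IDs on chromosome X, 1570 on Y and 37 of the mitochondrial genome were listed at 0, so members of other lists that lie there have no usable value. All 9 regulators are autosomal.

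Promoter windows of the members at both ends of the range of differences, Elf3 and Gata3, are shown because they are the sequence next to the starts of the transcripts compared. Windows were present for 5 members, in 8 windows, in RefSeq's table on GRCm38.p6, the build also called mm10, and each runs from 250 bases before a start to 50 after it. Capitals mark matches to 4 motifs searched on both strands, ATCAAAG for TCF/LEF factors, GGAATG for TEAD factors, GCCNNNGGC for AP-2 factors and AGATAA for GATA factors, and no matches overlapped in these windows.
Elf3, minus strand, chr1:135258423-135258722: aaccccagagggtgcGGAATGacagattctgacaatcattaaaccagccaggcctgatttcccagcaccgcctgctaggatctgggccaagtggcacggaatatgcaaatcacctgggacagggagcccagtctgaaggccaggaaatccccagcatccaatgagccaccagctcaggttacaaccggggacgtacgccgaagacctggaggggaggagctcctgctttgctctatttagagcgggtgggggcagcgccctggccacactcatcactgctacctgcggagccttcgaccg
Gata3, minus strand, chr2:9878551-9878850: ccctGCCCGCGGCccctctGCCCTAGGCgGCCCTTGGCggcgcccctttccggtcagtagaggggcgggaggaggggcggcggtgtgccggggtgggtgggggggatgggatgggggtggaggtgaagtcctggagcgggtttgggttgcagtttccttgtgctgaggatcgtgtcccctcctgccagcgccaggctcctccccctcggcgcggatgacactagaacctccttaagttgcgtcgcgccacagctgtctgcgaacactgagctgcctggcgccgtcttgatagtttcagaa

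The Elf3 window held 1 TEAD match, starting 235 bases before the RefSeq start, and the Gata3 window held 3 AP-2 matches, starting 246, 231 and 221 bases before it. Among all 32851 windows outside chromosome 18, 14.7% held a TEAD match, 16.6% an AP-2 match, 11.2% a GATA match and 3.73% a TCF/LEF match. These are matches of letters and describe the windows only. The Gata3 window lies inside the longer GENCODE gene, at a downstream start.

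Elf3 (ENSMUSG00000003051, chromosome 1, 135253575 to 135258568, mm10) encodes an ETS factor of epithelial cells. It had 12264 and 7396 normalized counts in B1 and B2, against 4576 and 4178 in A1 and A2. All B values lay above all A values, and B1 stood well above B2 while A1 and A2 were close. Group means were 9830 ± 3442 in group B and 4377 ± 282 in group A (SD, n = 2 each), with a log2 fold change of 1.17 (adjusted p 0.246, authors' deposited table). With limma on log2(normalized count + 1) of the recovered libraries it was 1.12 (SE 0.24, 95% interval 0.53 to 1.71, adjusted p = 0.0766). With 1 library left out, the limma log2 fold change of Elf3 was 0.76 without B1, 1.49 without B2, 1.19 without A1 and 1.06 without A2. Each such fit takes its spread from the pair left, and the lone library is assumed to vary like it. No call of Elf3 is therefore read from these fits. Elf3 overlaps Gm26642, an antisense transcript, which had 40.3 and 30.7 normalized counts in B1 and B2, against 12.9 and 11.9 in A1 and A2. No source used here says whether counting used strand, so reads of this pair cannot be told apart.

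**Figure D1:**
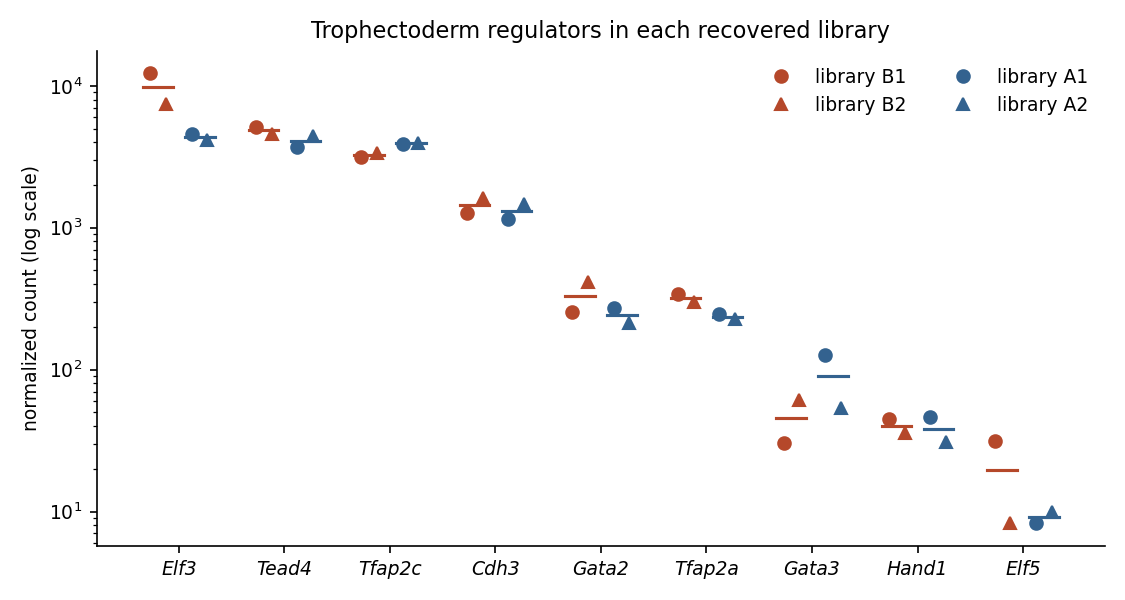
Normalized counts (log axis) of the 9 regulators, ordered by mean, in libraries B1, B2, A1 and A2, with a short line at each group mean. Elf3 ranges from 4178 to 12264 and Elf5 from 8.28 to 31.2, and the groups overlap for Cdh3, Gata2, Gata3, Hand1 and Elf5.

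Elf3 was highest where the summed endoderm markers were highest. Primitive and visceral endoderm markers, the other early extraembryonic lineage, had summed normalized counts of 406198 in B1 and 220509 in B2, against 140142 in A1 and 106364 in A2. With all libraries 0 of the 18 endoderm markers passed in the authors' deposited table, where 3.46% of all genes did. Limma called 4 of the 17 it tested, against 2.01% of all genes it tested. Without B1 it called 10, against 4.87% of all genes, and without B2 11, against 5.43%. Without A1 or without A2 limma called 0% of all genes, so no list can have a call there, while 11.8% and 9.94% of them had an unadjusted p under 0.05. Their median log2 fold change was 1.16 in the authors' table, beside 0.010 across the 20465 genes whose mean reached 10. Of the 17 endoderm markers with such a mean, 10 were separated with group B above and 1 with group B below, against 26.4% and 26% of all genes with such a mean, and Afp was at 0 in B2 and A2. The most abundant members were Sparc, a matrix protein, with 100802 and 66874 normalized counts in B1 and B2 against 53013 and 36217 in A1 and A2, and the collagen gene Col4a1, with 118105 and 54287 in B1 and B2 against 30784 and 25322 in A1 and A2. Both weigh heavily in the sums. Of the 17 markers, 12 had a positive log2 fold change and 5 a negative one in the authors' deposited table. The 5 highest were Sox17 (3.50), Gata6 (3.20), Gata4 (2.99), Foxa2 (2.84) and Pdgfra (2.60). The negative ones were Ttr (-2.46), Cubn (-0.60), Fst (-0.27), Hnf4a (-0.15) and Apoa1 (-0.12). The part of the endoderm markers in the Elf3 difference was not tested, and in bulk samples more cells of a type and more RNA per cell cannot be told apart.

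**Figure D2:**
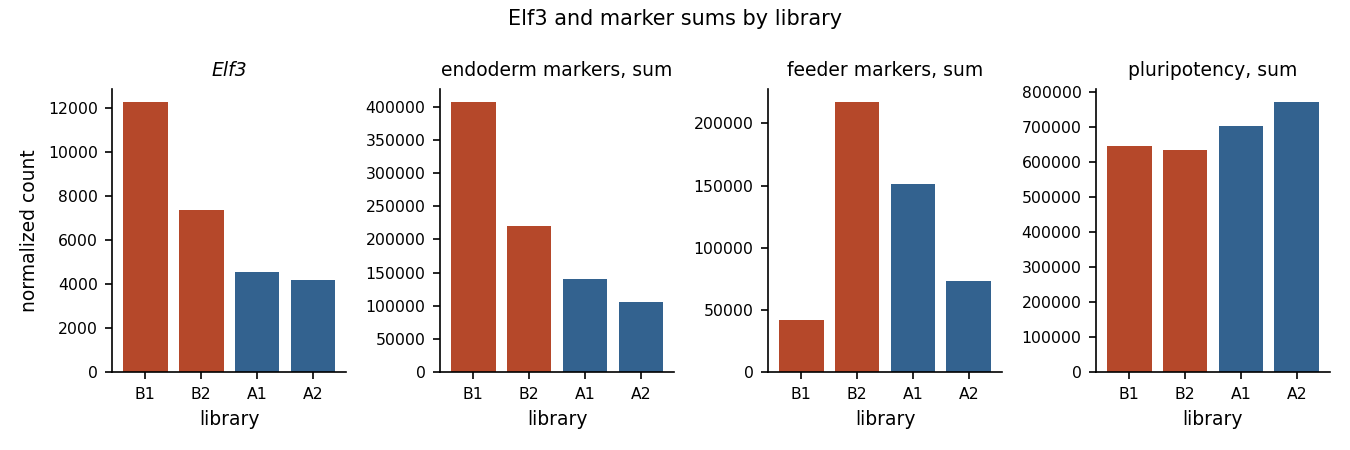
Normalized counts of Elf3 and summed normalized counts of endoderm, feeder and pluripotency markers in libraries B1, B2, A1 and A2, on linear axes from 0. Elf3 and the endoderm sum decrease in the order B1, B2, A1, A2, whereas the feeder sum is highest in B2 (216741) and lowest in B1 (41984).

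Elf5 (ENSMUSG00000027186, chromosome 2, 103411688 to 103450989) encodes the ETS factor that maintains trophoblast stem cells. It was the lowest of the 9, with 31.2 and 8.28 normalized counts in B1 and B2, against 8.29 and 9.89 in A1 and A2. B1 alone was high, and B2 was about level with both A libraries. The reads behind these values were 34 in B1 (95% exact Poisson interval 23.5 to 47.5) and 7 in B2 (2.81 to 14.4), against 9 in A1 (4.12 to 17.1) and 10 in A2 (4.80 to 18.4), intervals that cover counting error only. The authors' deposited table gives a log2 fold change of 1.12 (adjusted p 1), and limma gave 0.78 (SE 0.70, 95% interval -0.95 to 2.51, adjusted p = 0.59). Without B1 the limma value was -0.12 (adjusted p = 0.941), so the sign of the Elf5 difference rested on that library.

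Gata3 and Gata2 encode zinc finger factors that drive trophoblast genes, and both had values that overlapped between the groups. Gata3 (ENSMUSG00000015619, chromosome 2, 9857078 to 9890034) had 30.3 and 61.5 normalized counts in B1 and B2, against 127 and 53.4 in A1 and A2. A1 alone was high, and A2 lay between the B libraries. Its log2 fold change was -0.98 (adjusted p 0.976, authors' deposited table), or -0.92 in limma (SE 0.56, 95% interval -2.29 to 0.46, adjusted p = 0.414). Gata2 (ENSMUSG00000015053, chromosome 6, 88193891 to 88207032) had 253 and 413 normalized counts in B1 and B2, against 272 and 214 in A1 and A2. B2 was the high library, and B1 lay between the A libraries. The log2 fold change of Gata2 was 0.46 (adjusted p 1, authors' deposited table), or 0.42 in limma (SE 0.31, 95% interval -0.34 to 1.18, adjusted p = 0.498). For both genes A1 was above A2 and B2 above B1, the order that the summed feeder markers also had, and the part of feeder RNA in these values was not tested. Feeder markers had 0 of 19 members past the threshold, against 3.46% of all genes, and 0 with separated groups, against 52.5%, with a median log2 fold change of 0.15, and none at 0 in any library. Their most abundant members were the collagen genes Col1a2, with 9468 and 56892 normalized counts in B1 and B2 against 37638 and 17900 in A1 and A2, and Col1a1, with 8757 and 55013 in B1 and B2 against 31482 and 17177 in A1 and A2. The 3 transcripts that overlap Gata3 had at most 1.84 normalized counts in any library.

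Tfap2c and Tfap2a, the AP-2 members, had small differences in opposite directions, each with separated groups. Tfap2c (ENSMUSG00000028640, chromosome 2, 172549593 to 172558622), an AP-2 factor of trophoblast and germ cell precursors, had 3126 and 3383 normalized counts in B1 and B2, against 3912 and 3970 in A1 and A2. Both B libraries lay below both A libraries. Its means were 3254 ± 181 in group B and 3941 ± 40.7 in group A (SD, n = 2 each), a log2 fold change of -0.28 (adjusted p 0.776, authors' deposited table). The 95% interval in limma was -0.56 to 0.0097 (SE 0.12, adjusted p = 0.256). Tfap2a (ENSMUSG00000021359, chromosome 13, 40715302 to 40738376), which also acts in neural crest and skin, had 341 and 300.3 normalized counts in B1 and B2, against 246 and 226 in A1 and A2. The groups were again separated, with group B above. Its log2 fold change was 0.44 (adjusted p 0.693, authors' deposited table), with a limma interval of -0.09 to 0.97 (SE 0.22, adjusted p = 0.32). An antisense transcript within Tfap2a, Gm26688, had 5.50 and 1.18 normalized counts in B1 and B2 and 0 in both A libraries. Neural crest and surface ectoderm markers, genes of other tissues in which Tfap2a is active, had 0 of 12 higher and 1 lower past the threshold, against 1.54% higher and 1.92% lower over all genes, with a median log2 fold change of 0.06. The member past it was Foxd3, also a factor of pluripotent cells, which fell to 2741 and 2469 normalized counts in B1 and B2, against 5847 and 5739 in A1 and A2 (adjusted p 3.61e-07, authors' deposited table).

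Tead4 (ENSMUSG00000030353, chromosome 6, 128224288 to 128300823) encodes the DNA-binding partner of YAP that acts at the top of the trophectoderm programme. It had 5146 and 4568 normalized counts in B1 and B2, against 3700 and 4418 in A1 and A2. The groups were separated, with B2 only just above A2. Means were 4857 ± 408 in group B and 4059 ± 507 in group A (SD, n = 2 each), a log2 fold change of 0.26 (adjusted p 0.800, authors' deposited table) with a limma interval of -0.08 to 0.61 (SE 0.14, adjusted p = 0.354). Hand1 (ENSMUSG00000037335, chromosome 11, 57828705 to 57832818), a basic helix-loop-helix factor of giant cells and of mesoderm, had 44.9 and 35.5 normalized counts in B1 and B2, against 46.1 and 30.7 in A1 and A2. The B values lay between the A values. Its log2 fold change was 0.07 (adjusted p 1, authors' deposited table), and the limma interval ran from -0.89 to 1.05 (SE 0.39, adjusted p = 0.934). Cdh3 (ENSMUSG00000061048, chromosome 8, 106510891 to 106557297) had 1261 and 1619 normalized counts in B1 and B2, against 1154 and 1480 in A1 and A2. The groups overlapped, and the library numbered 2 was the higher in each. Its log2 fold change was 0.13 (adjusted p 1, authors' deposited table), with a limma interval of -0.37 to 0.63 (SE 0.20, adjusted p = 0.779).

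**Figure D3:**
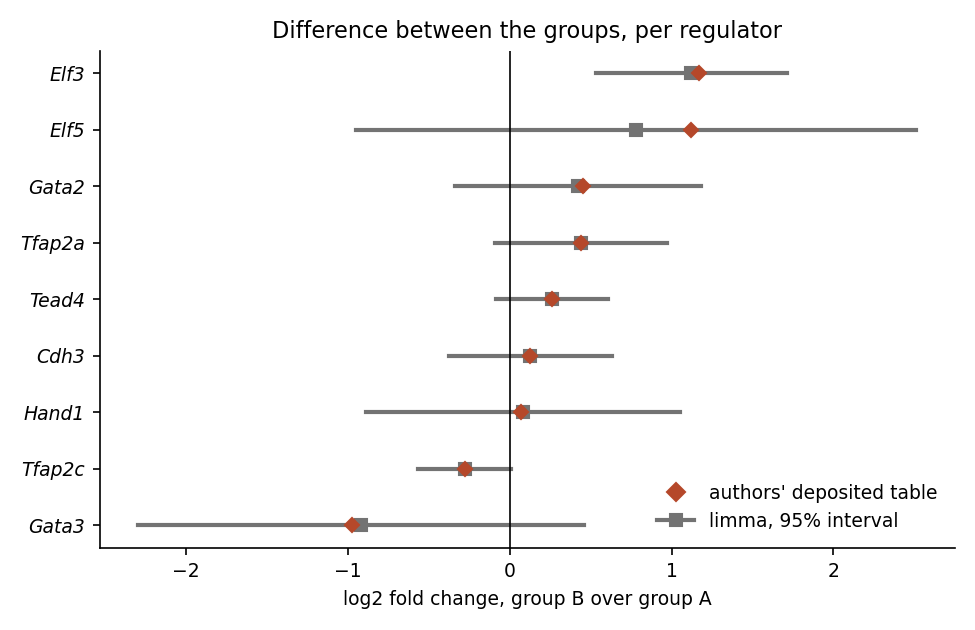
Log2 fold change of group B over group A for each regulator, from the authors' deposited table (diamonds) and from limma on the recovered libraries (squares, with 95% intervals as lines). The Elf3 interval, 0.53 to 1.71, lies above 0 and those of the other 8 span it, and Elf5 and Gata3 have the widest intervals.

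In the authors' test 0 of the 9 regulators were higher and 0 lower past the threshold, where 3.46% of 30237 genes passed, 1.54% higher and 1.92% lower. Limma likewise called 0 of the 9 with all libraries, against 2.01% of the 20465 genes it tested, those whose mean reached 10. At an unadjusted p under 0.05 the regulators counted 1 of 9 in each test, which was Elf3 both times, while the shares over all genes tested were 10.5% in the authors' test and 20.7% in limma. Fold changes were positive for 7 and negative for 2, with a median of 0.26 on the log2 scale. Groups did not overlap for 4 of 9 (Elf3, Tfap2a and Tead4 above, Tfap2c below), and that share was 52.5% across the genes whose mean reached 10.

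The smallest difference that was called varied with the level of a gene. Among genes with a mean of 1000 to 10000, the range of Elf3, Tead4, Tfap2c and Cdh3, 5.68% passed, and the smallest absolute log2 fold change that passed was 0.57. From 100 to 1000, where Gata2 and Tfap2a lie, 8.67% passed and the smallest was 0.69. From 10 to 100, where Gata3, Hand1 and Elf5 lie, 2.06% passed and the smallest was 1.30. Elf3 was the member whose difference exceeded the smallest one called at its level, and those of the other 8 were below it. The smallest called values are observed ones and no limits of detection, since Elf3 exceeded its own and was not called. The B pair differed more than the A pair at each level, with a standard deviation of log2 B1 over B2 of 0.37 across genes with means of 1000 to 10000, against 0.24 for A1 over A2. For Elf3 these log2 ratios were 0.73 and 0.13.

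Per kilobase of merged exon in GENCODE M21, levels of the 9 spanned 3 orders of magnitude. Elf3 was the highest, at 4434 normalized counts per kb in group B and 1974 in group A. Tead4 followed at 1350 in group B and 1128 in group A, then Tfap2c at 885 in group B and 1071 in group A, and the library ranges of Tead4 and Tfap2c overlapped. Cdh3 had 328 per kb in group B and 300.5 in group A, below every library of Tfap2c. Tfap2a (65.4 in group B and 48.2 in group A) and Gata2 (61.7 in group B and 45.0 in group A) overlapped. So did Hand1 (20.1 in group B and 19.2 in group A) and Gata3 (11.5 in group B and 22.7 in group A). Elf5 lay below all others, at 3.36 per kb in group B and 1.55 in group A. Among genes with reads and a length, the mean level per kb stood above 90.9% of genes for Elf3, 82.0% for Tead4 and 79.2% for Tfap2c, and above 39.9% for Gata3 and 20.1% for Elf5.

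Paralogs gave each member a neighbour to set it against, on the same scale of normalized counts per kb. Gata4 and Gata6, the GATA factors of endoderm, stood far above Gata2 and Gata3 in group B, at 1970 and 900.3 per kb, and at 248 and 98.3 per kb in group A. Neither passed in the authors' deposited table (log2 fold changes 2.99 and 3.20, with adjusted p values of 0.285 and 0.117), while limma called Gata6 (3.09, SE 0.41, adjusted p = 0.034) and not Gata4 (2.86, SE 0.48, adjusted p = 0.051). Gata5 had at most 1.83 normalized counts in a library, and Gata1 and Elf4, both on chromosome X, were listed at 0, as was Tfap2d. Among TEAD genes Tead2 (2042 in group B and 2066 in group A) and Tead1 (1860 in group B and 1312 in group A) were of the order of Tead4, and Tead3 was lower (71.5 in group B and 60.7 in group A). Tfap2e had 19.1 per kb in group B and 21.7 in group A, and Tfap2b 0.28 in group B and 0.22 in group A. Of the ETS genes nearest to Elf3 and Elf5, Elf2 had 561 per kb in group B and 489 in group A, and the epithelial factor Ehf 1.18 in group B and 2.47 in group A. Hand2 had 9.66 per kb in group B and 5.84 in group A. E-cadherin (Cdh1) had 10167 per kb in group B and 7163 in group A, so it exceeded Cdh3 in both groups.

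Of 19 paralogs, 16 had reads and 14 had a mean of at least 10. Of these 14, 9 were separated with group B above and 1 with group B below, against 26.4% and 26% of all genes with such a mean. Gata4 and Gata6 also stand in the endoderm list, so these lists are not independent. Past the threshold 2 paralogs were higher and 0 lower, against 1.54% and 1.92% of all genes. The median log2 fold change over the 14 was 0.62. N-cadherin (Cdh2), an adhesion molecule of mesenchymal and neural cells, rose to 1317 and 1332 normalized counts in B1 and B2, against 576 and 379 in A1 and A2 (1.47 as a log2 fold change, with an adjusted p of 7.17e-09, in the authors' deposited table). Elf1, a broadly expressed ETS factor, rose to 2355 and 1731 in B1 and B2, against 1046 and 986 in A1 and A2 (1.01, adjusted p 0.0217, authors' deposited table), and in limma its adjusted p was 0.0634. Limma called 4 paralogs without B1 and 7 without B2, where it called 4.87% and 5.43% of all genes, and 0 without A1 or without A2, where it called no gene.

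**Figure D4:**
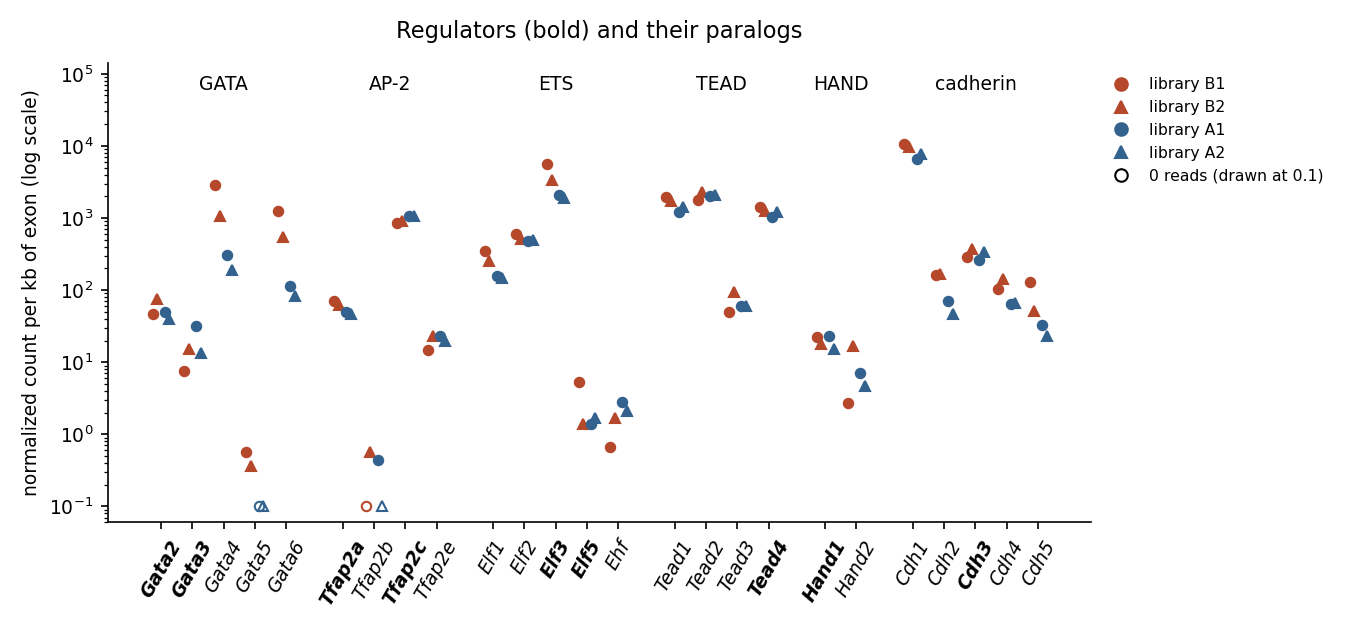
Normalized counts per kb of merged exon (log axis) of the regulators, in bold, and their paralogs with reads, grouped by family, in libraries B1, B2, A1 and A2. Gata4 and Gata6 lie above Gata2 and Gata3 in every library, Elf3 above the other ETS genes, and libraries without a read are drawn as open marks at the foot.

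Of 30 other trophectoderm and trophoblast genes listed, 25 had reads, and 1 was higher and 0 were lower past the threshold, against 1.54% and 1.92% of all genes. Over the 24 with a mean of at least 10 the median log2 fold change was -0.04, with 12 positive and 12 negative. The gene was Krt18, a keratin of simple epithelia, which rose to 4464 and 3939 normalized counts in B1 and B2, against 1551 and 996 in A1 and A2 (1.72 as a log2 fold change, with an adjusted p of 1.08e-13, in the authors' deposited table). Group B was separated above group A for 9 of the 24 and below it for 5, against 26.4% and 26% of all genes with such a mean. In limma the list had 1 call with all libraries, 5 without B1, 6 without B2 and 0 without A1 or without A2, beside the shares of all genes given with the endoderm markers. The following genes are named after their values were seen. Cdx2, the homeobox factor downstream of TEAD4, had 496 and 132 normalized counts in B1 and B2, against 59.0 and 27.7 in A1 and A2 (2.86, adjusted p 0.616, authors' deposited table). Krt8, the keratin partner of Krt18, had 11486 and 6551 in B1 and B2, against 2999 and 1724 in A1 and A2 (1.93, adjusted p 0.0875, authors' deposited table). Fgfr2, the receptor through which FGF4 acts on trophoblast, had 3884 and 1542 in B1 and B2, against 598 and 501 in A1 and A2 (2.30, adjusted p 0.387, authors' deposited table). For Cdx2, Krt8 and Fgfr2, B1 was the highest library, as in Elf3, and B2 was above both A libraries. Other listed genes lay the other way. Ascl2, a factor of the spongiotrophoblast, had 248 and 246 in B1 and B2, against 372 and 944 in A1 and A2 (-1.41, adjusted p 0.817, authors' deposited table). Gcm1, a factor of the syncytiotrophoblast, had 25.7 and 24.8 in B1 and B2, against 59.9 and 53.4 in A1 and A2 (-1.17, adjusted p 0.490, authors' deposited table). Ets2, an ETS factor of trophoblast stem cells, had 3714 and 3085 in B1 and B2, against 4368 and 3919 in A1 and A2 (-0.29, adjusted p 0.818, authors' deposited table). For Ascl2, Gcm1 and Ets2 the B libraries were the lowest of the 4. Among the listed genes, Esx1, Rhox6, Rhox9 and Cited1, lie on chromosome X and were listed at 0, and so was Tpbpa, an autosomal gene of the spongiotrophoblast.

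The Hippo pathway holds YAP, the partner of TEAD4, out of the nucleus. Of its 23 genes in the table, 2 were higher and 1 lower past the threshold, against 1.54% and 1.92% of all genes, with a median log2 fold change of 0.12 over 22 genes. Ajuba, a LIM protein that restrains the LATS kinases, fell to 7836 and 7498 normalized counts in B1 and B2, against 14680 and 15956 in A1 and A2 (fold change 0.501, adjusted p 1.07e-05, authors' deposited table). Sav1, the scaffold of the upstream kinases, rose to 5071 and 5582 in B1 and B2, against 3089 and 3772 in A1 and A2 (fold change 1.55, adjusted p 0.0259, authors' deposited table). Mob1b, a cofactor of LATS, rose to 5011 and 4461 in B1 and B2, against 3336 and 2849 in A1 and A2 (fold change 1.53, adjusted p 0.0306, authors' deposited table). In limma with all libraries the pathway had 1 call, Ajuba (adjusted p = 0.0268), and the adjusted p was 0.0832 for both Sav1 and Mob1b. It had 3 calls without B1, 1 without B2 and 0 without A1 or without A2, with the same all-gene shares beside them.

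Markers of further tissues that use the same regulators were read beside them, against 1.54% higher and 1.92% lower over all genes. Mesoderm markers, a tissue in which Hand1 acts, had 2 of 14 higher and 0 lower, with a median log2 fold change of 0.17. These were T, the mesoderm factor brachyury, with 5830 and 4799 normalized counts in B1 and B2 against 312 and 303 in A1 and A2 (adjusted p 3.51e-38), and Snai1, a repressor of E-cadherin, with 2731 and 2712 in B1 and B2 against 911 and 938 in A1 and A2 (adjusted p 5.43e-12), both in the authors' deposited table. Blood and endothelial markers, where Gata2 acts, had 2 of 14 higher and 0 lower, with a median of 0.58. Of the 13 with a mean of at least 10, 8 were separated with group B above and 1 with group B below. These shares were 26.4% and 26% across all genes with such a mean. Of the same 13, 9 had a positive log2 fold change and 4 a negative one. Among the negative ones was Tal1 (-1.87, adjusted p 0.181, authors' deposited table). Spi1, a factor of myeloid cells, had 426 and 403 normalized counts in B1 and B2, against 158 and 153 in A1 and A2 (adjusted p 5.71e-05, authors' deposited table). Ptprc, the leukocyte antigen CD45, had 45.8 and 35.5 in B1 and B2, against 1.84 and 11.9 in A1 and A2 (adjusted p 0.0471, authors' deposited table), and in limma with all libraries the adjusted p of Ptprc was 0.129. Limma with all libraries called 2 of the 13 it tested, against 2.01% of all genes it tested. These were Spi1 (adjusted p = 0.0418) and Runx1 (adjusted p = 0.0312). Runx1 did not pass in the authors' deposited table (log2 fold change 2.94, adjusted p 0.0577). Summed blood and endothelial markers were 22446 and 21935 normalized counts in B1 and B2, against 17969 and 18111 in A1 and A2. Pecam1 weighs heavily in these sums, with 10683 and 11688 in B1 and B2 against 9775 and 9817 in A1 and A2. The part of blood and endothelial markers in the Gata2 values was not tested. The 12 pluripotency factors had 3 positive and 9 negative log2 fold changes. Of them 1 was separated with group B above and 7 with group B below, beside the same 26.4% and 26% of all genes. Past the threshold 0 of the 12 were higher and 1 was lower, with a median of -0.29. It was Utf1, a chromatin factor of pluripotent cells, which fell to 23994 and 23047 in B1 and B2, against 42044 and 52142 in A1 and A2 (adjusted p 0.000237, authors' deposited table).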

How the data were processed

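The data are 1 table comparing group B with group A. Per the submitters' processing notes, STAR, DESeq and the build mm10 were used; the counter, strand setting, annotation release and any filter were not given in the sources used here. Per the file headers, the authors deposited for each gene a signal, the mean normalized count over all libraries and over each group (reads divided by size factors), the fold change of B over A, its log2 value, a p-value and that p-value adjusted. Of 46608 rows, 5 repeats were dropped.

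Calls are those of the deposited test, at an adjusted p of 0.05 over all 30237 genes with a count. Each group mean is a sum of whole reads of each of its 2 libraries, times what 1 read of that library is worth. These worths are low values of the deposited column, and they returned whole reads within 1e-06 in every gene with a mean. More than 1 pair of counts was within that tolerance for 1700 genes in group A and 11 in group B, and the closest was taken. Library numbers are not the labels' replicate numbers. As an alternative, limma 3.58.1 in R 4.3.3 was run across all 20465 genes whose mean reached 10, on log2(normalized count + 1) with a trended variance and Benjamini-Hochberg adjustment; this scale understates changes of low genes. Count models were not run. The procedure was tested on simulated counts with the same dispersion for every gene and library. That setting does not cover the wider spread of the B pair, so it does not vouch for the limma calls. Positions and exon lengths came from GENCODE M21 (46091 gene IDs matched) and promoters from RefSeq. Tables were made in Python 3.11.15.

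The 9 members and the 9 further lists (163 entries) were chosen with earlier results of these data known. Some genes stand in more than 1 list, so the counts of different lists are not independent. Named genes are the members, Gsk3a, Gsk3b, paralogs, and per list up to 3 called genes, by adjusted p, or the 2 most abundant where none was called. Cdx2, Krt8, Fgfr2, Ascl2, Gcm1, Ets2, Runx1, Tal1 and Pecam1 fall outside this rule. So do the endoderm markers Afp, Ttr, Cubn, Fst, Hnf4a, Apoa1, Sox17, Foxa2 and Pdgfra. All of these were chosen after their values were seen. Alternatives were limma, no minimum mean, pseudocounts of 0.5 and 5, total-count and upper-quartile scaling, thresholds of 0.1 and 0.01, and leaving out each library.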

Additional observations from a re-analysis of the deposited data

How the results depend on the processing

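No regulator passed in the authors' test at thresholds of 0.1 and 0.01. None passed in limma with all libraries under any pseudocount, minimum or scaling tried. At 0.05, 3.46% of all genes passed in the authors' test and 2.01% of those tested in limma as run. The count of 0 is therefore not read as particular to the 9 regulators. Of 90 limma fold changes of the 9 genes, 85 kept the sign of the authors' deposited table. Without 1 library, log2 fold changes in limma ran from 0.76 to 1.49 for Elf3, -0.12 to 1.68 for Elf5, -0.20 to 0.37 for Hand1 and -0.051 to 0.31 for Cdh3. The 5 reversals were Elf5 without B1 (-0.12), Hand1 without A2 (-0.20) and without B1 (-0.082), and Cdh3 without A1 (-0.051) and without B2 (-0.051), and none of these passed. For the others the range was 0.07 to 0.77 for Gata2, -1.54 to -0.30 for Gata3, 0.35 to 0.53 for Tfap2a, -0.33 to -0.22 for Tfap2c and 0.13 to 0.39 for Tead4.

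Counts past the threshold without 1 library ran from 0 to 6 for trophoblast genes, 0 to 3 for Hippo genes, 0 to 7 for paralogs, 0 to 2 for pluripotency factors, 0 to 11 for endoderm markers (10 without B1), 0 to 3 for mesoderm markers, 0 to 3 for blood and endothelial markers and 0 to 2 for neural crest markers. Each of these counts was 0 without A1 and without A2, where limma called 0 of 20465 genes, and its highest value came without B1 or without B2. Each such fit takes its spread from the pair left. At a threshold of 0.1 the authors' test counted 2 trophoblast genes, 4 paralogs, 2 pluripotency factors, 2 endoderm markers and 2 neural crest markers, and at 0.01 it counted 1 Hippo gene, 1 paralog and 1 blood or endothelial marker. Limma with all libraries called 1 Hippo gene under all 6 settings. For endoderm markers, 0 in the authors' test, it called 4 as run, 6 with no minimum mean, 4 with a pseudocount of 0.5, 6 with a pseudocount of 5, 5 when scaled by total count and 7 when scaled by upper quartile. It called 2 neural crest markers with a pseudocount of 5 and with upper-quartile scaling. Over all genes tested, limma as run called 2.01%. Shares of all genes at thresholds of 0.1 and 0.01 and under the other limma settings were not counted. These movements are therefore not read as particular to a list, and their cause was not tested.

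No paired analysis was possible because the deposited columns carry no replicate numbers and the recovered libraries cannot be matched to those of the labels. With 2 libraries a group, the spread between libraries limits precision, and for Elf5, Hand1 and Gata3, with 7 to 138 reads a library, counting error does too.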
